A study of Mus musculus with 6 samples.

Results

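A set of 10 surface molecules used to recognise blood progenitors and leukemic stem cells was followed across 6 libraries of a humanized mouse model of acute myeloid leukemia (AML): CD34, KIT, PROM1, FLT3, CD96, IL1RAP, CD47, CD99, CD93 and HAVCR2. They were taken by symbol from the 13892 genes of the deposited table, where each had 1 entry. The hosts were NSG mice, which lack a working immune system of their own. The leukemias came from human hematopoietic stem cells given NPM1c, a mutant nucleophosmin displaced to the cytoplasm, with GFP standing in for its expression. Each of 3 moribund mice traced to a separate transduction, and its marrow was sorted into a bulk leukemic fraction gated on GFP and CD33 and a leukemic stem cell (LSC) fraction gated on GFP, CD33 and CD123. All cells compared therefore carried NPM1c and CD33. The bulk gate was not set on CD123, so CD123-bearing cells were not kept out of it. Each fraction had 3 libraries, and bulk 1 and LSC 1 are from mouse 1, and so on; age and sex of the mice are not given. The questions asked here were whether markers of immature cells were higher or lower in the CD123-gated cells than in the bulk of the same leukemia, and how they varied between mice.

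CD34 is a sialomucin of stem and progenitor cells, and PROM1, also called CD133, is a cholesterol-binding membrane glycoprotein of immature cells. KIT and FLT3 are related receptor tyrosine kinases, for stem cell factor and FLT3 ligand, that maintain early progenitors, and FLT3 also drives the development of dendritic cells. The other members have been used to tell leukemic from normal stem cells. CD96 is an adhesion receptor best known from T and NK cells, IL1RAP is the shared co-receptor of the interleukin 1 family, and CD47 signals to phagocytes through SIRPA. CD99 is a small glycoprotein of cell adhesion and migration, CD93 is a lectin-like receptor of myeloid and endothelial cells, and HAVCR2 is an inhibitory receptor for galectin 9.

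Levels are given as CPM, a gene's reads scaled to a common normalized library size, and read numbers were recovered from the deposited values. Libraries held 10669560 to 14933494 reads, of which 27.2% to 70.0% lay on 10 MTRNR2L genes, which resemble mitochondrial ribosomal RNA. Bulk 1 had the highest such share and kept 3423878 reads outside those genes, against 6132431 to 9571165 in the other libraries, so that 3 reads equalled 0.514 CPM there and 0.190 to 0.254 CPM elsewhere. IL3RA, which encodes CD123, was 2.01 ± 0.424 CPM in bulk and 108 ± 51.7 in LSC (SD, n = 3 here and below), in the direction of the gate. CD33, on which both gates were set, was 8.57 ± 4.31 against 5.34 ± 3.67 CPM. NPM1, whose reads can come from the endogenous gene and the transgene alike, was 811 ± 91.2 in bulk and 419 ± 96.4 in LSC (limma adjusted p 0.0879, and 0.00886 with the mouse in the model, which became 0.0506 without mouse 1 and 0.0880 without mouse 2). Plasmacytoid dendritic cell markers, 22 of 22 in the table and 6 at 0 in at least 1 library, summed to 198 to 555 CPM in bulk and 2313 to 3912 CPM in LSC. By the test described next, 19 of 22 were higher in LSC, beside 2.71% of all genes. IL3RA, set by the gate, is among these 19 and is no independent result.

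LSC and bulk were compared with limma on the log2 CPM of the 13755 genes that reached 1 CPM in 3 libraries. P-values were adjusted over all of them by the Benjamini-Hochberg method, with a threshold of 0.05, and 10 of 10 members passed the filter. Without the mouse in the model, 0 of 10 members passed in either direction, beside 1.33% of all genes that were lower in LSC and 2.71% that were higher. At an unadjusted p below 0.05, limma counted 5 of 10 members (CD34, KIT, PROM1, CD96 and CD99), beside 20.2% of all genes. Limma with voom on the recovered reads also called 0 of 10. With the mouse as a term, which compares LSC and bulk within each mouse, 4 of 10 members were lower in LSC (CD34, KIT, PROM1 and CD96), beside 7.71% of all genes. By the same fit 1 of 10 was higher (CD99), beside 8.25% of all genes, a share near the background. Voom with the mouse term gave 4 lower and 1 higher as well. For 3 members every bulk library lay above every LSC library, beside 11.9% of all genes, and for 1 member every LSC library lay above every bulk library, beside 13.2%. The median log2 change of the 10 members was -0.52, against -0.00 over all genes tested, and it was -0.82 without bulk 1 and -0.26 without bulk 2. It runs over 6 members with a negative and 4 with a positive change.

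**Figure D1:**
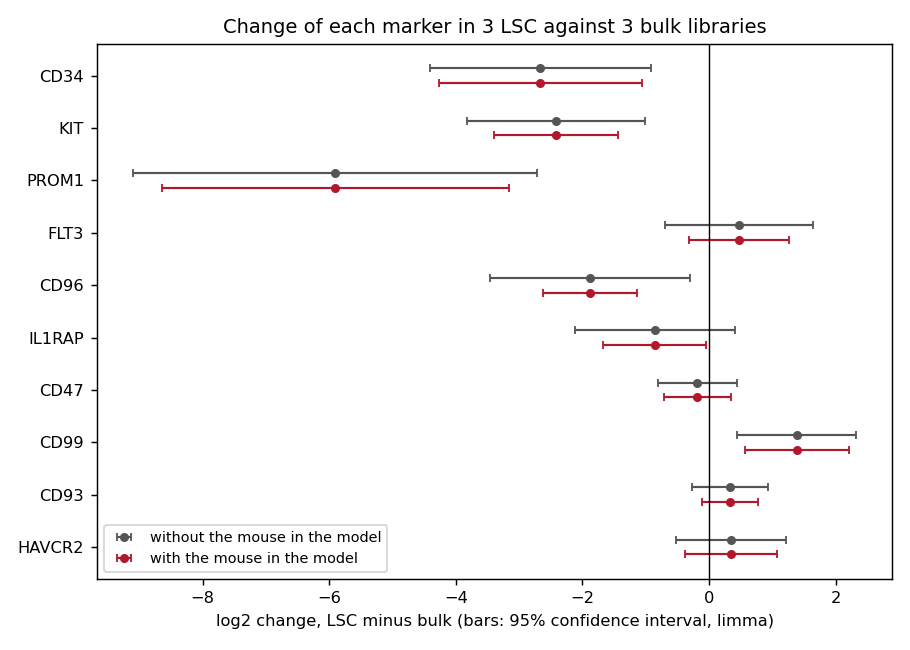
Log2 change of each marker, LSC minus bulk, on the horizontal axis, with 95% confidence intervals from limma without the mouse (grey) and with the mouse in the model (red), from 3 libraries per population. CD34, KIT and PROM1 lie farthest to the left, at -2.66, -2.42 and -5.91, CD99 lies at 1.38, and the intervals of FLT3, CD47, CD93 and HAVCR2 cross 0 in both fits.

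PROM1 had the largest ratio between the sorts of the 10 members. It stood at 14.6, 4.997 and 19.1 CPM in bulk 1, 2 and 3 (85, 59 and 299 reads) and at 1.55, 0.190 and 0 CPM in LSC 1, 2 and 3 (21, 3 and 0 reads). Every LSC library was below every bulk library, and the means of 12.9 ± 7.21 and 0.581 ± 0.846 CPM differed 22.2-fold. Within mice, bulk exceeded LSC 9.38-fold in mouse 1 (95% interval 5.76 to 15.9) and 26.3-fold in mouse 2 (8.56 to 131). In mouse 3 no LSC read was seen, and bulk was at least 70.7-fold higher by the exact 95% limit, or 87.4-fold against a floor of 3 reads. The intervals, the limit and the floor cover counting error only, because the RNA was amplified without tags that mark single molecules. Limma put the log2 change at -5.91 with a standard error (SE) of 1.42, and its size depends on the small constant added before taking logs. The adjusted p was 0.0526, and 0.0139 with the mouse as a term. Leaving out LSC 1 gave 0.0260 without the mouse term, and leaving out mouse 2 ended the call with it (0.0566). Without mouse 3 the log2 change was -3.90, with an adjusted p of 0.115 that became 4.09e-05 with the mouse term. Here and below, a fit of 2 mice with the mouse term has few libraries left to measure a gene's own spread. Its p-values rest mostly on spread borrowed from other genes and are weak evidence of stability. Without mouse 3 that fit called 1747 genes higher and 1567 lower, against 1135 and 1060 with all 3 mice.

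CD34 was lower in LSC in 3 of 3 mice. Bulk 1, 2 and 3 held 17.3, 7.20 and 26.8 CPM (101, 85 and 419 reads), and LSC 1, 2 and 3 held 5.39, 3.23 and 0.729 CPM (73, 51 and 10 reads). The groups did not overlap, although bulk 2 and LSC 1 were close, and mouse 3 had both the highest bulk and the lowest LSC value. Means were 17.1 ± 9.81 and 3.12 ± 2.33 CPM, a 5.48-fold difference. In limma this was a log2 change of -2.66 (SE 0.78), with an adjusted p of 0.0960, and of 0.0361 with the mouse as a term. The bulk to LSC ratio was 3.21 in mouse 1 (2.35 to 4.39), 2.23 in mouse 2 (1.56 to 3.22) and 36.8 in mouse 3 (19.8 to 77.2). Without mouse 3 the log2 change was -1.41, with an adjusted p of 0.308, and of 0.0191 with the mouse term. Leaving out mouse 1 or mouse 2 ended the call with the mouse term (0.0764 and 0.0600).

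KIT was also lower in LSC in 3 of 3 mice. It measured 43.0, 28.5 and 24.2 CPM in bulk 1, 2 and 3 (251, 336 and 379 reads) and 8.35, 11.7 and 1.97 CPM in LSC 1, 2 and 3 (113, 184 and 27 reads). No LSC library reached the lowest bulk library, and LSC 3 was again the lowest of the 6. The means of 31.9 ± 9.83 and 7.33 ± 4.93 CPM differed 4.35-fold. Limma gave a log2 change of -2.42 (SE 0.63), with an adjusted p of 0.0691, and of 0.00806 with the mouse as a term. Per mouse, bulk exceeded LSC 5.15-fold (4.11 to 6.48), 2.44-fold (2.03 to 2.94) and 12.3-fold (8.33 to 18.9) in mice 1, 2 and 3. KIT passed with the mouse as a term whichever mouse was left out (8.26e-06 to 0.0452). Without that term it passed when LSC 2 was left out (0.0455), and its log2 change was -1.65 without LSC 3 and -1.82 without mouse 3.

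In RNA from sorted fractions, fewer cells expressing CD34, KIT or PROM1 and less RNA per cell cannot be told apart, and several marker lists moved with these genes. B lineage markers (18 of 19 listed genes in the table, 1 of them at 0 in at least 1 library) summed to 780 CPM, 806 CPM and 4018 CPM in bulk 1, 2 and 3 and to 425 to 478 CPM in LSC. Bulk 3, the library with the most CD34, PROM1 and CD96, thus also held the most B lineage RNA. Within LSC the B lineage sum (478, 425 and 452 CPM in LSC 1, 2 and 3) did not have the order of CD34 or PROM1. Erythroid markers (15 of 16, 4 at 0 in at least 1 library) summed to 223 to 970.3 CPM in bulk and 60.2 to 247 in LSC. Basophil, eosinophil and mast cell markers (16 of 17, 1 at 0 in at least 1 library) summed to 249 to 2107 CPM in bulk and 161 to 546 in LSC. Mast cells can carry KIT, but eosinophil granule genes weighed heavily in this sum, with EPX alone at 530 CPM in bulk 2. The order of KIT within LSC, from LSC 2 through LSC 1 to LSC 3, was also that of the erythroid sum (247, 134 and 60.2 CPM). The basophil, eosinophil and mast cell sum had it too (546, 451 and 161 CPM), but members of that list were mixed. CPA3 was highest in LSC 1 (22.2, 19.1 and 13.4 CPM in LSC 1, 2 and 3), as was TPSB2. HDC and GATA2 had the order of KIT within LSC but, unlike KIT, were higher in LSC than in bulk in every mouse. Granulocyte markers (15 of 15, 3 at 0 in at least 1 library) stood in the order of KIT within LSC as well (1611, 1494 and 136 CPM), with 166 to 4485 CPM in bulk. That LSC 2 stood above LSC 1 rested on MPO (890 and 309 CPM), and DEFA3 had the other order (333 and 721 CPM). The monocyte and macrophage sum had the order of KIT within LSC too (2859, 1584 and 1254 CPM). With the mouse as a term, limma called 6 of 15 granulocyte markers lower, beside 7.71% of all genes. The same fit called lower 9 of 17 B lineage markers tested, 11 of 15 erythroid and 8 of 16 basophil, eosinophil and mast cell markers. It called 1 B lineage marker and 2 of the last list higher, beside 8.25% of all genes. Within bulk, KIT was highest in bulk 1 and the basophil, eosinophil and mast cell sum in bulk 2. Bulk 3 had the lowest erythroid (223 CPM), basophil, eosinophil and mast cell (249 CPM) and granulocyte (166 CPM) sums, each below that of LSC 2. Cell cycle genes (24 of 24, none at 0 in any library) summed to 8391, 5983 and 4585 CPM in bulk 3, 1 and 2. In LSC 1, 2 and 3 they summed to 1935, 1851 and 1223 CPM, so the 6 libraries stood in the order of CD34 and of PROM1. Of the cell cycle genes, 8 of 24 were lower by limma without the mouse, beside 1.33% of all genes, and 17 of 24 with it, beside 7.71%. The part of these cell types and of cycling in the differences of CD34, KIT and PROM1 was not tested.

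**Figure D2:**
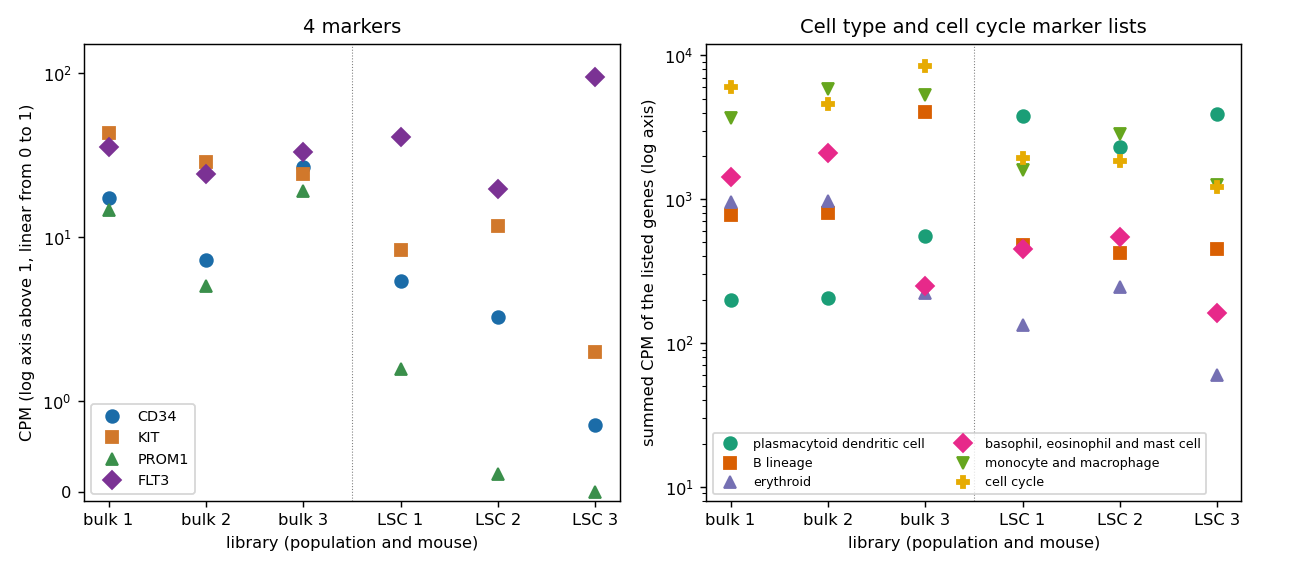
Left, CPM of CD34, KIT, PROM1 and FLT3 in the 6 libraries, on an axis that is logarithmic above 1 and linear from 0 to 1; right, summed CPM of cell type and cell cycle marker lists in the same libraries, on a log axis. CD34, KIT and PROM1 are lowest in LSC 3 (0.729, 1.97 and 0 CPM), where FLT3 is highest (94.7 CPM), and the B lineage sum is highest in bulk 3 (4018 CPM).

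FLT3, the other receptor kinase of the group, had no common direction in the 3 mice. Bulk 1, 2 and 3 held 35.4, 24.1 and 32.9 CPM (207, 284 and 515 reads), and LSC 1, 2 and 3 held 40.9, 19.5 and 94.7 CPM (553, 307 and 1299 reads). The LSC values enclosed those of bulk, since LSC 2 was the lowest and LSC 3 by far the highest of the 6 libraries. Means were 30.8 ± 5.99 and 51.7 ± 38.8 CPM. The log2 change in limma was 0.47 (SE 0.52, 95% interval -0.70 to 1.65), with an adjusted p of 0.647, and of 0.382 with the mouse as a term. The interval holds a decrease as well as a rise of over 1 log2 unit, so it does not show that FLT3 was alike in both sorts. Within mice, the LSC to bulk ratio was 1.15 in mouse 1 (0.981 to 1.36), 0.809 in mouse 2 (0.686 to 0.954) and 2.88 in mouse 3 (2.59 to 3.19). The direction rested on mouse 3, since the log2 change was -0.11 without LSC 3 and -0.0499 without mouse 3.

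Within LSC, FLT3 stood in the same order as the plasmacytoid dendritic cell list, a cell type in which FLT3 is known to be expressed. The list summed to 3912 CPM in LSC 3, 3809 in LSC 1 and 2313 in LSC 2. LSC 3 and LSC 1 were close, so their order in the sum depended on single genes such as TCF4 (1089 and 789 CPM). Its members were mixed: TLR9 was higher in LSC 3 (172 against 56.8 CPM), and IRF8 (932 against 982) and GZMB (95.6 against 247) were lower there than in LSC 1. Within bulk the order differed, since FLT3 was highest in bulk 1 (35.4 CPM) and the list in bulk 3 (555 CPM). Conventional dendritic cell markers, 11 of 13 in the table with FLT3 among them and none at 0 in any library, summed to 77.6 to 103 CPM in bulk and 150.1 to 201.3 in LSC. FLT3 itself was 94.7 of 199.6 CPM in LSC 3 and 35.4 of 99.0 in bulk 1, so this sum is not independent of it. THBD rose from 3.08, 3.30 and 1.41 CPM in bulk 1, 2 and 3 to 79.5, 35.6 and 19.2 in LSC. CLEC9A was lower in LSC (0.961, 1.84 and 0.146 against 4.28, 5.76 and 1.15 CPM). With the mouse as a term limma called 4 of 11 higher and 0 lower, beside 8.25% and 7.71% of all genes. The part of dendritic cells in the FLT3 values was not tested.

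CD96 was lower in LSC in 3 of 3 mice, on levels that differed widely between mice. It stood at 18.3, 11.1 and 48.5 CPM in bulk 1, 2 and 3 (107, 131 and 758 reads) and at 3.47, 3.61 and 15.6 CPM in LSC 1, 2 and 3 (47, 57 and 214 reads). Mouse 3 was highest in both sorts, so LSC 3 exceeded bulk 2 and the groups overlapped. Bulk exceeded LSC 5.27-fold in mouse 1 (3.71 to 7.60), 3.07-fold in mouse 2 (2.23 to 4.27) and 3.11-fold in mouse 3 (2.67 to 3.63). Of the variance of log2 CPM over the 6 libraries, 49.7% lay between sorts, 48.5% between mice and 1.85% in the remainder. The log2 change was -1.88 (SE 0.70), and its limma adjusted p of 0.180 became 0.00727 with the mouse as a term. Leaving out mouse 1 ended that call (-1.62, 0.0624), and without the mouse term the change ranged from -1.29 without bulk 3 to -2.59 without LSC 3. T and NK cell markers, the lineage in which CD96 is best known, summed to 93.0 to 135 CPM in bulk and 172 to 236 in LSC (11 of 17 in the table, 2 of them at 0 in at least 1 library). CD4, which plasmacytoid dendritic cells also carry, and KLRD1 made up most of that sum, and the other 9 markers summed to 24.1 to 40.7 CPM in bulk and 27.6 to 45.9 in LSC. Their part in the CD96 values was not tested.

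IL1RAP was lower in LSC in 3 of 3 mice but did not pass in either fit. It measured 5.82, 23.4 and 11.3 CPM in bulk 1, 2 and 3 and 4.14, 8.69 and 7.15 CPM in LSC 1, 2 and 3. Mouse 2 was highest and mouse 1 lowest in both sorts, and 63.7% of the variance lay between mice. The log2 change in limma was -0.86 (SE 0.56, 95% interval -2.12 to 0.41), with an adjusted p of 0.426, and of 0.136 with the mouse as a term. The change was -1.35 without bulk 1, the shallowest library, where it rested on 34 reads, and -0.35 without bulk 2.

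CD99 was higher in LSC in 3 of 3 mice. Bulk 1, 2 and 3 were tightly grouped at 5.14, 4.57 and 4.09 CPM (30, 54 and 64 reads), and LSC 1, 2 and 3 held 17.0, 8.81 and 11.5 CPM (230, 139 and 158 reads). Every LSC library lay above every bulk library, with means of 12.4 ± 4.17 and 4.601 ± 0.521 CPM, a 2.70-fold difference. The LSC to bulk ratio was 3.31 (2.26 to 5.02), 1.93 (1.40 to 2.69) and 2.81 (2.09 to 3.82) in mice 1, 2 and 3. Limma gave a log2 change of 1.38 (SE 0.42), with an adjusted p of 0.106, and of 0.0347 with the mouse as a term. The call with the mouse term was lost without mouse 1 (0.223) or mouse 2 (0.0894). CD99 shares sequence with the pseudogene CD99P1, so how reads were divided between them makes the value of each uncertain. CD99P1 stood at 6.51, 6.69 and 9.85 CPM in bulk and 13.3, 8.11 and 6.20 in LSC (log2 change 0.21, limma adjusted p 0.817). The sum of both was 11.6, 11.3 and 13.9 CPM in bulk 1, 2 and 3 and 30.3, 16.9 and 17.7 CPM in LSC 1, 2 and 3, still without overlap.

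CD47, CD93 and HAVCR2 did not pass in either fit. CD47 stood at 91.6, 109 and 118 CPM in bulk 1, 2 and 3 and at 116, 80.4 and 86.1 in LSC 1, 2 and 3, higher in LSC in mouse 1 and lower in the other mice. Its log2 change was -0.19 (SE 0.28, 95% interval -0.81 to 0.43, limma adjusted p 0.742), and its whole range over 6 libraries was 0.56 log2 units. CD93 stood at 143, 140.2 and 131 CPM in bulk 1, 2 and 3 and at 188, 205 and 136 in LSC 1, 2 and 3, so LSC was higher in 3 of 3 mice while bulk 1 and 2 lay above LSC 3. Its log2 change was 0.33 (SE 0.27, interval -0.27 to 0.93), with a limma adjusted p of 0.515, and of 0.281 with the mouse as a term. HAVCR2 stood at 16.4, 17.1 and 21.5 CPM in bulk 1, 2 and 3 and at 17.1, 37.7 and 19.2 in LSC 1, 2 and 3, where LSC 2 alone was apart. The change of HAVCR2 was 0.35 (SE 0.38, interval -0.52 to 1.21, limma adjusted p 0.652), and it was -0.00651 without LSC 2 and -0.0518 without mouse 2.

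**Figure D3:**
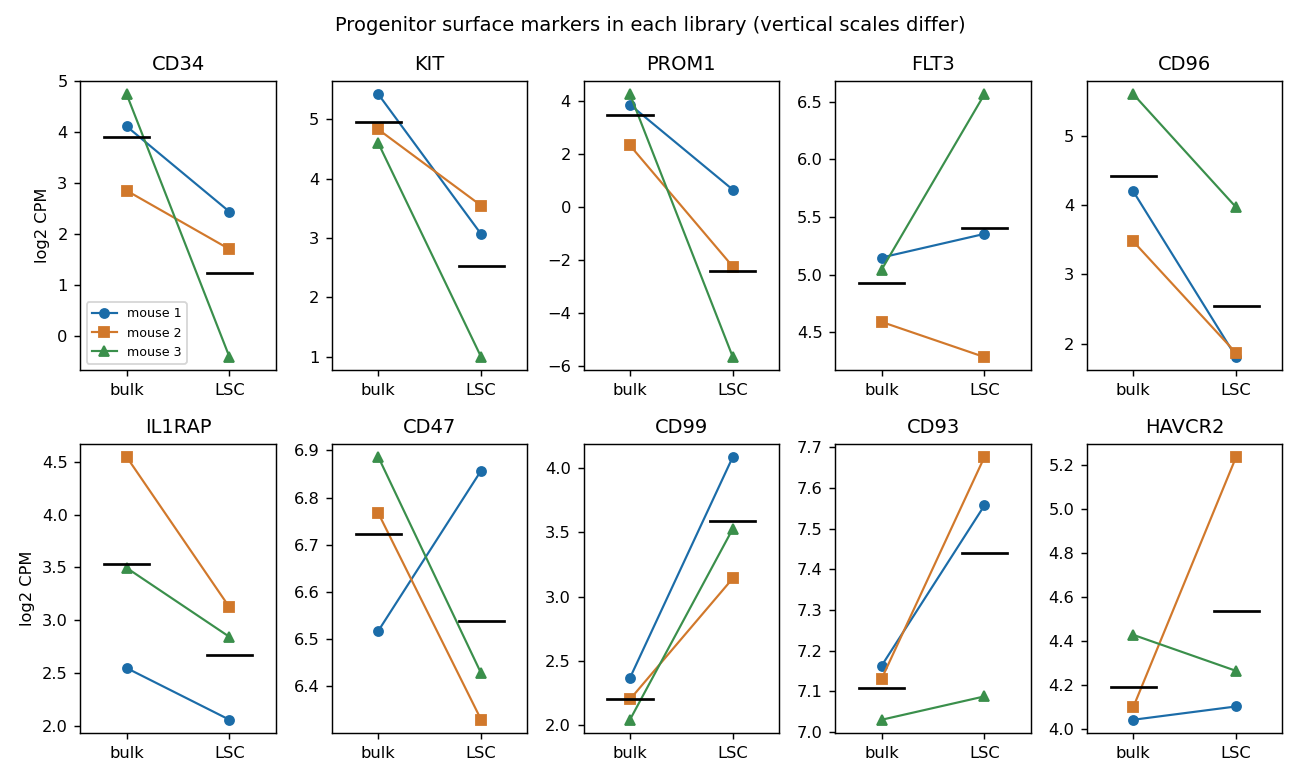
Log2 CPM of the 10 markers in bulk and LSC, with 1 line per mouse joining its libraries and black bars at the mean of each sort; the vertical scales differ between panels. The lines of CD34, KIT, PROM1, CD96 and IL1RAP slope down in every mouse, those of CD99 and CD93 slope up in every mouse, and the lines of mouse 3 are steepest for CD34, KIT, PROM1 and FLT3.

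The authors' deposited table of their own comparison, coded bulk minus LSC, gave the same 5 members the lowest false discovery rates of the 10. The authors' deposited table lists log2 fold changes of 5.27 for PROM1, 2.41 for KIT, 2.50 for CD34, 1.88 for CD96 and -1.39 for CD99. The false discovery rates in the authors' deposited table are 0.133, 0.193, 0.280, 0.323 and 0.399 in the same order. No gene of the authors' deposited table has a rate below 0.05, and the lowest is 0.0813.

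The members differed in how they varied together across libraries. Over the 6 libraries from 3 mice, where points share the mouse and the sort, Pearson's r of log2 CPM was 0.978 for CD34 with PROM1, 0.900 for CD34 with KIT and 0.916 for KIT with PROM1. Without LSC 3 these were 0.942, 0.704 and 0.760, so the value of CD34 with PROM1 moved least. KIT and FLT3 stood at -0.722, which became 0.0361 without LSC 3, and CD34 and FLT3 went from -0.537 to 0.521. The negative relation of FLT3 to CD34 and KIT therefore rested on 1 library.

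The genes nearest in pattern to these 4 markers were sought among 9532 genes with a mean of at least 5 CPM. For CD34 they were NDC80, a kinetochore protein (r = 0.993), YEATS4, a reader of acetylated histones (0.990), and BNIP2 (0.989). For KIT they were CTR9, a subunit of a transcription elongation complex (0.996), SYT2, a synaptotagmin (0.994), and CTNNAL1 (0.989). For PROM1 they were CDKN3, a cell cycle phosphatase (0.997), VTA1 of the endosomal sorting machinery (0.996) and LIN9 of the complex that drives mitotic genes (0.994). FLT3 was most like UBE2Q1, a ubiquitin conjugating enzyme (0.989), TRMT1L, a relative of a tRNA methyltransferase (0.987), and PUS7L, a relative of a pseudouridine synthase (0.987). CDKN3 shows the PROM1 pattern at levels above 1 CPM: its log2 CPM was 3.92, 3.63 and 4.20 in bulk 1, 2 and 3 and 2.97, 1.81 and 0.49 in LSC 1, 2 and 3. These coefficients describe 6 libraries that share 3 mice, and carry no test.

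Other surface antigens of stem and progenitor cells were followed as a list of 44, of which 34 were in the table and tested. In limma without the mouse 3 of 34 rose and 0 fell, with 12 of 34 at an unadjusted p below 0.05, and voom without the mouse also gave 3 and 0. The shares of all genes were 2.71%, 1.33% and 20.2%. With the mouse 6 rose and 5 fell, beside 8.25% and 7.71% of all genes, and the median log2 change was 0.08. IL3RA, the sorted antigen, rose by 5.60 log2 units and is no independent result. CD164, a sialomucin of progenitors like CD34, rose from 42.4 ± 10.8 to 143 ± 41.6 CPM, or by 1.75 log2 units (limma adjusted p 0.0243). LILRB4, an inhibitory receptor of monocytic and dendritic cells, rose from 14.9 ± 6.44 to 57.5 ± 14.3 (2.01, 0.0256). Leaving out bulk 1, bulk 2, LSC 1 or LSC 3 ended both calls, at 0.0726 to 0.0823 for CD164 and 0.0685 to 0.0884 for LILRB4. Leaving out mouse 1 or mouse 2 ended them too (0.225 and 0.0725 for CD164, 0.211 and 0.121 for LILRB4), as did mouse 3 for CD164 (0.0641) and a fit without the variance trend (0.0815 and 0.0768). With the mouse as a term, both passed in limma whichever mouse was left out (up to 0.0235 for CD164 and 0.0297 for LILRB4). ITGA6, an integrin chain of long-term stem cells, had a log2 change of -1.69 (0.0595, and 0.0152 with the mouse), and ENG, a co-receptor of the TGF-beta family, of -1.99 (0.123, and 0.0666 with the mouse). Others that passed with the mouse term were CD36 and LAIR1, higher, and CLEC12A, GPR125, ANPEP and CSF3R, lower. Leaving out mouse 1 ended the calls with the mouse term of ITGA6 (0.122), CD36 (0.0533), CLEC12A (0.195) and GPR125 (0.111), and leaving out mouse 2 ended those of the same 4 genes and of ANPEP (0.0562 to 0.173). CLEC12A, ANPEP and CSF3R are found on myeloid cells. Monocyte and macrophage markers (12 of 16 in the table, 2 at 0 in at least 1 library) summed to 3663 to 5810 CPM in bulk and 1254 to 2859 in LSC. Most of that sum was LYZ (2505 to 4500 CPM in bulk and 855 to 2210 in LSC). MS4A6A (27.9 to 51.9 against 132 to 172 CPM) and CD68 (15.9 to 33.2 against 38.4 to 63.9) were higher in LSC. With the mouse as a term limma called 1 of 11 tested higher and 6 lower, beside 8.25% and 7.71% of all genes. The part of monocytes in CLEC12A, ANPEP and CSF3R was not tested.

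**Figure D4:**
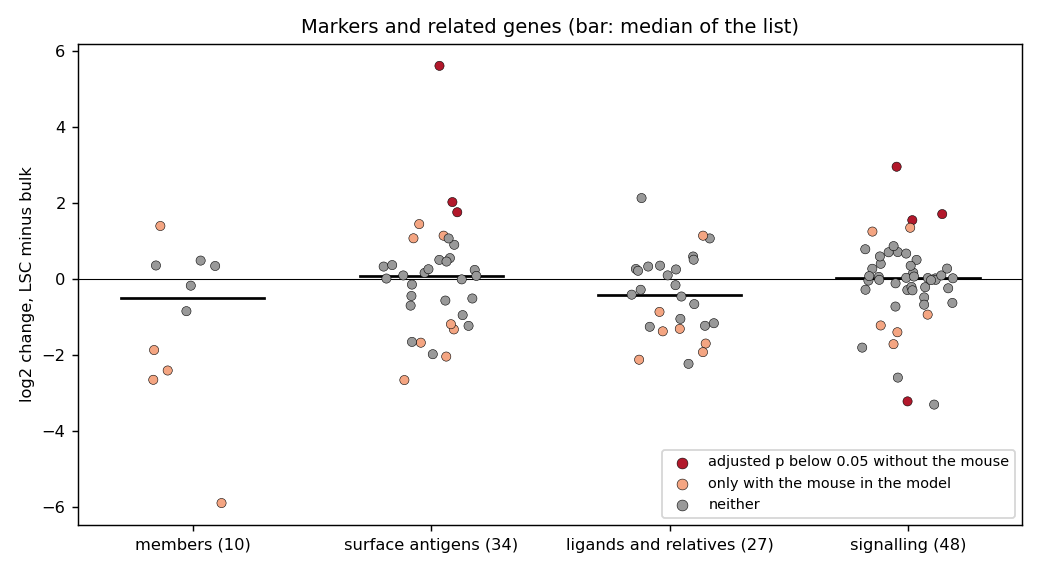
Log2 change, LSC minus bulk, of the 10 members and of 34 other surface antigens, 27 ligands and relatives and 48 signalling genes, 1 point per gene, with a bar at each median; red points passed limma without the mouse, orange points with the mouse in the model, and grey points neither. The medians are -0.52, 0.08, -0.42 and 0.01.

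Ligands, co-receptors and relatives of the members formed a list of 40, of which 28 were in the table and 27 were tested. In limma without the mouse 0 of 27 passed and 5 had an unadjusted p below 0.05, beside 20.2% of all genes, and voom without the mouse also called 0. With the mouse as a term 1 rose and 6 fell, beside 8.25% and 7.71% of all genes. The median log2 change was -0.42. Among the partners of CD47, SIRPA had a log2 change of -1.39 (adjusted p 0.266, and 0.0148 with the mouse) and THBS1 of -1.71 (0.345, and 0.0125 with the mouse). Among those of HAVCR2, CEACAM1 had -1.94 (0.336, and 0.00333 with the mouse) and HMGB1 -0.88 (0.165, and 0.0183 with the mouse). LGALS9, which encodes galectin 9, stood at 17.6 ± 7.17 CPM in bulk and 13.3 ± 5.46 in LSC (0.662, and 0.353 with the mouse). PILRA, an inhibitory receptor of myeloid cells, went from 7.04 ± 2.94 to 1.76 ± 1.28 CPM (-2.13, 0.108, and 0.0361 with the mouse). CSF1R, a kinase of the KIT and FLT3 family that marks monocytes, stood at -1.32 (0.234, and 0.0418 with the mouse). SIRPB1, a relative of SIRPA, stood at -0.67 (0.175, and 0.0504 with the mouse). Leaving out mouse 2 ended each of the 6 lower calls (0.0549 to 0.128), leaving out mouse 1 ended those other than CEACAM1 (0.0530 to 0.173), and leaving out mouse 3 ended those of PILRA (0.0630) and CSF1R (0.0578). PVR, the ligand of CD96, was 22.4 ± 6.80 CPM in bulk and 23.1 ± 1.69 in LSC (adjusted p 0.908).

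Signalling genes downstream of KIT, FLT3 and IL1RAP formed a list of 50, of which 49 were in the table and 48 were tested. Without the mouse 3 of 48 rose and 1 fell in limma, beside 2.71% and 1.33% of all genes. With the mouse 5 rose and 5 fell, shares near the 8.25% and 7.71% of all genes, and the median log2 change was 0.01. SLA2, a Src-like adaptor, rose from 4.04 ± 1.19 to 30.4 ± 3.45 CPM, or by 2.94 log2 units (limma adjusted p 0.00439). SH2B3, an adaptor also called LNK, rose from 37.6 ± 7.76 to 121 ± 20.2 (1.70, 0.0158). PIK3CD, the leukocyte catalytic subunit of phosphoinositide 3-kinase, rose from 51.4 ± 13.0 to 148 ± 22.2 (1.54, 0.0224). Its relative PIK3CA was -1.23 (0.0896, and 0.0322 with the mouse), and the regulatory subunit PIK3R1 -0.95 (0.104, and 0.0168 with the mouse). MAPK3, which encodes ERK1, fell from 9.01 ± 3.42 to 1.07 ± 0.650 CPM (-3.23, 0.0344). MAP2K1, the kinase that activates it, was 1.34 (0.0896, and 0.0207 with the mouse). SLA2 passed whichever 1 library was left out, but not without mouse 1 (0.102) or mouse 2 (0.0606). SH2B3 did not pass without bulk 1, LSC 1 or LSC 3 (0.0545 to 0.0701), nor PIK3CD without bulk 1 or any 1 LSC library (0.0554 to 0.0954), nor MAPK3 without any 1 library except LSC 2 (0.0649 to 0.114). Leaving out a whole mouse ended the calls of SH2B3 for mouse 1 or 2 (0.209 and 0.0890), of PIK3CD for any mouse (0.0661 to 0.240) and of MAPK3 for any mouse (0.127 to 0.185). A fit without the variance trend ended the same 3 calls (0.0567 to 0.0798). LYN, a Src family kinase, rose with the mouse as a term (1.24, 0.0336, and 0.148 without the term). SLA, another adaptor, and IRAK3, an inhibitor of interleukin 1 signalling, fell with it (-1.41, 0.00824, and -1.72, 0.00404, against 0.148 and 0.104 without the term). With the mouse term, leaving out mouse 1 or mouse 2 ended the calls of MAP2K1, LYN, PIK3CA, PIK3R1 and SLA (0.0753 to 0.204), and leaving out mouse 2 that of MAPK3 (0.0587). By that fit SLA2, SH2B3 and PIK3CD passed whichever mouse was left out (up to 0.0182, 0.0323 and 0.0289). STAT5A and STAT5B, which transmit KIT and FLT3 signals, stood at 0.26 and 0.02 (0.803 and 0.977).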

How the data were processed

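RNA of sorted bulk and LSC fractions from 3 mice was amplified with a NuGEN Ovation kit, per the labels' protocols. RSEM, Bowtie2, edgeR and hg19 appear, without version or role, in the submitters' processing notes. For each library the authors deposited log2 CPM with a small prior, a scale inferred from the values, which share a floor of 0.0197 CPM. Per the file headers, the same table gives the authors' log2 fold change, p-value, false discovery rate and likelihood ratio score; whether their model held the mouse is not given. Mouse, the host, is the organism on the labels, but the symbols and build are human, and 21 symbols had turned into dates.

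Steps above the floor gave reads, whole within 0.1 for 100% of values below 1000 reads; RSEM reads may have been rounded, so they are estimates. The filter of 1 CPM in 3 libraries kept 13755 of 13892 genes. Deposited log2 values entered limma 3.58.1 (R 4.3.3, lmFit, eBayes with trend, two-sided tests, Benjamini-Hochberg adjustment), and no count model was fitted. Libraries pair by mouse: the deviations of a mouse's 2 libraries from their group means had correlations of 0.327, 0.350 and 0.302, and values with the mouse as a term are printed beside members, NPM1 and list genes whose call they change. The labels describe separate mice, so replicates are biological. For 3 against 3 libraries an exact permutation test reaches 0.1 at the lowest. Ratios per mouse have exact conditional 95% intervals. The fitting code was tested on simulated data.

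The members and gene lists were chosen with earlier results of these data known, so no list count is independent evidence. Named genes are the 10 members, IL3RA, CD33 and NPM1, in each related list up to 5 genes with the largest moderated statistic and up to 8 past the threshold, and for CD34, KIT, PROM1 and FLT3 the 3 genes of highest correlation (antigen receptor, HLA, sex-linked, symbol-less, MTRNR2L and LOC entries left out). Genes named because they passed with the mouse term, and CD99P1, CD4, KLRD1, LGALS9, PVR, STAT5A and STAT5B, were chosen after their values were seen. An item within these lists is counted but not reported by name here. Alternatives were other pseudocounts, filters, scalings, weights and variance settings, voom on recovered reads, the mouse as a term, and leaving out each library or mouse; the mouse term on 2 mice was added after seeing the data.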

Additional observations from a re-analysis of the deposited data

How the results depend on the processing

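Across 25 alternatives the direction of CD34, KIT, PROM1, CD96, IL1RAP, CD47, CD99 and CD93 held wherever a value could be had (24 for PROM1, which the 5 CPM filter removes). With the mouse as a replicate block, 1135 genes were higher and 1060 lower, 1 member higher and 4 lower, and higher calls were 51.7% of all calls against 67.1% without it. Voom with the block gave 1216 higher and 1217 lower, with 1 member higher and 4 lower. The block without mouse 1, 2 or 3 gave 344, 296 and 1567 genes lower and 2, 2 and 4 members lower, and without mouse 3 1747 genes and 1 member higher. Without the block, leaving out mouse 1, 2 or 3 left 0, 8 and 74 genes lower, and mouse 1 or 2 37 and 85 higher; leaving out 1 library left 168 to 346 genes higher, 38 to 169 lower and 0 to 1 member lower. Genes higher were 197 without the trend. Genes lower were 54 without the trend, 302 and 280 with pseudocounts of 1 and 5 CPM, and 282 with array weights. Members lower were 1 with a pseudocount of 0.1 CPM or upper-quartile scaling (PROM1). They were 2 with pseudocounts of 1 and 5 CPM, quantile normalization or array weights (KIT and PROM1). These causes were not tested.

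Directions turned for FLT3 (-0.11 to 1.03 on leaving out 1 library; -0.0499 without mouse 3, with or without the block), HAVCR2 (-0.00651 to 0.56; -0.0518 without mouse 2), CD33 (0.29 without mouse 3), UBE2Q1 (-0.0198 to 0.53), TRMT1L (-0.14 to 0.80; -0.13 without mouse 3) and PUS7L (-0.12 to 0.75; -0.0846 without mouse 3), none of which passed the test. The design has 3 mice, and PROM1 in LSC, CD34 in LSC 3 and MAPK3 in LSC rest on few reads.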
